A study of Sus scrofa with 6 samples.

Results

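Transcript levels of 7 genes that handle lipid-soluble hormones and vitamins were followed in porcine endometrial epithelial cells given seminal exosomes. The genes were CYP24A1, CRYM, RBP4, ALDH1A3, ESR1, PGRMC2 and HSD17B4, which are 7 of the 10915 genes with values in the deposited table. They were picked by name as hormone receptors, binding proteins and metabolizing enzymes, with the exosome and control values of these libraries in view. Their differences between the groups are therefore given as a description, with no test. Of the 7, 6 were found by the symbol in the table, and ALDH1A3 was found by its identifier, ENSSSCG00000004822, which the reference gene table pairs with that symbol.

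The cells were primary cultures at passage 3, isolated with EDTA and collagenase from uteri of slaughterhouse pigs and grown on collagen in medium with fetal bovine serum. The 3 exosome libraries came from cells that received 10 µg per well of exosomes for 48 h, precipitated with a commercial reagent from the sperm-rich fraction of boar seminal fluid. The 3 control libraries came from cells without exosomes, and both groups otherwise shared cell type, passage and culture. The labels name no strain, age or cycle stage, and do not state if replicates were separate uteri or wells of one culture, so the spread between them may be technical.

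Steroid hormones, active vitamin D, retinoic acid and thyroid hormone cross the cell membrane and act through nuclear receptors that bind DNA. How much hormone reaches a receptor depends on carriers in blood and cytosol and on enzymes that make or destroy the active form. In the endometrium, oestrogen and progesterone set the cycle of growth and secretion. In the pig, the uterine glands also secrete retinol-binding protein into the lumen, where the early embryo takes up nutrients.

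The values are FPKM, fragments scaled to transcript length and library size, so levels can be compared between genes. The FPKM sums of the libraries lay from 721273 to 732922 in control libraries and from 690258 to 711250.3 in exosome libraries, and the depth is unknown because the table gives no counts. Epithelial markers were present, with KRT19, KRT8 and CD24 the highest of the 9 matched from a list of 16, and their summed level was 14053 to 14529 FPKM in control libraries and 12010.1 to 13258 in exosome libraries. Of 13 stromal symbols 5 were matched, with CD90, VIM and COL1A2 the highest and sums of 2788 to 3042 in control libraries and 2274 to 2494 FPKM in exosome libraries. The groups did not overlap in these 2 sums, and their part in the differences below was not tested. CD90 made up most of the stromal sum, at 2328 ± 93.7 FPKM in control libraries and 1849 ± 69.4 in exosome libraries. It was the 1 stromal gene of 5 without overlap, although all 5 had negative log2 differences. Of the 9 epithelial genes 5 had no overlap, where 18.7% of all genes had none. In such bulk libraries fewer cells of a type and less RNA per cell cannot be told apart. The 1 endothelial marker matched, KDR, was at 0.968 to 1.96 FPKM, and the leukocyte markers CD14, CD68 and LYZ summed to 9.49 to 12.5 FPKM. TAGLN, the 1 smooth muscle marker matched, was at 78.5 to 140.9 FPKM, and ACPP, the 1 matched of the sperm and seminal gland symbols, was at 1.74 to 2.49 FPKM in control libraries and 2.69 to 2.88 in exosome libraries. Over all genes tested, exosome replicate 2 differed less from control replicates 2 and 3 (SD of log2 differences 0.20 each) than from exosome replicates 1 and 3 (0.24 and 0.25).

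RBP4 (ENSSSCG00000010479; RefSeq places the gene on chromosome 14, 105037360 to 105044552, of Sscrofa11.1) encodes the carrier of retinol in plasma and uterine fluid. It was the most abundant of the 7 transcripts and ranked 37 of 10915 by mean level, near the keratins. RBP4 measured 2779, 2847 and 2968 FPKM in control replicates 1, 2 and 3 and 2180.3, 2454 and 2347 FPKM in exosome replicates 1, 2 and 3. Every exosome library lay below every control library, with exosome replicate 2 nearest to the controls. The group means were 2865 ± 96.1 and 2327 ± 138 FPKM (SD, n = 3 each), a ratio of 0.812 and a log2 difference of -0.30 (SE 0.0553).

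ALDH1A3 (chromosome 1, 139451080 to 139491514, in RefSeq) oxidizes retinaldehyde to retinoic acid, the form that binds the retinoic acid receptors. Its level was 339.9, 429.7 and 391 FPKM in control replicates 1, 2 and 3, and 168, 306 and 157 FPKM in exosome replicates 1, 2 and 3. The groups did not overlap, but exosome replicate 2 was not far below control replicate 1, while the other 2 exosome libraries were far lower. The means were 387 ± 45.0 and 210 ± 82.7 FPKM, a ratio of 0.544 and a log2 difference of -0.94 (SE 0.231). With all 6 libraries both the difference and the spread were the largest of the 7 genes, but CYP24A1 had the larger difference without exosome replicate 3 (-0.90 against -0.76 for ALDH1A3), without exosome replicate 1 (-0.87 against -0.81), and with replicate 1 or 3 of both groups left out (-0.92 against -0.90 and -0.92 against -0.75). The SD within the exosome group was 39.3% of its mean for ALDH1A3, against 2.42% to 16.0% for the other members.

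ALDH1A1, a related retinaldehyde dehydrogenase, was measured in the same libraries and did not show the same pattern. It was at 236, 234 and 259 FPKM in control libraries and 275, 203 and 298 FPKM in exosome libraries, and the groups overlapped (limma log2 difference 0.07, SE 0.131, adjusted p = 0.849). The ratio of ALDH1A3 to ALDH1A1 within a library does not depend on how libraries are scaled. It was 1.44, 1.84 and 1.51 in control replicates 1, 2 and 3, and 0.611, 1.51 and 0.528 in exosome replicates 1, 2 and 3. ALDH1A3 was thus the more abundant of the pair in all 3 control libraries and in exosome replicate 2, and the less abundant in exosome replicates 1 and 3. The sum of both transcripts was 629.7 ± 47.3 FPKM in control libraries and 469 ± 34.9 FPKM in exosome libraries, a comparison chosen after the values were seen.

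**Figure D1:**
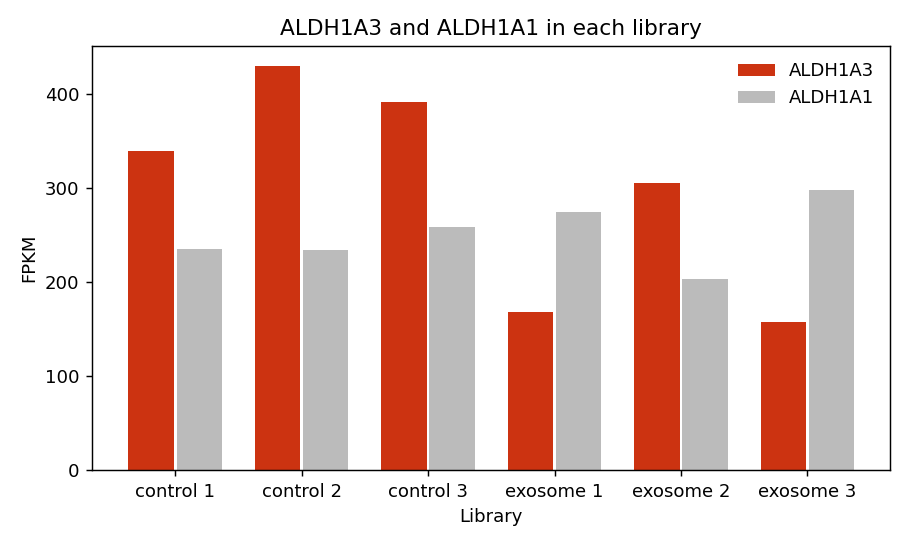
FPKM of ALDH1A3 (red) and ALDH1A1 (grey) in each of the 6 libraries, 1 bar per library. ALDH1A3 is the taller bar in every control library and in exosome replicate 2, and the shorter one in exosome replicates 1 and 3.

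The other retinoid genes give the setting of these 2 members. Of 35 symbols on a list of retinol carriers, retinoid enzymes and receptors, 11 besides RBP4 and ALDH1A3 were matched and tested. In limma 0 of the 11 passed an adjusted p of 0.05, where 0% of all 10846 genes tested did, and 2 were lower at an unadjusted p under 0.05, where 7.5% of all genes were. These were RDH11, a retinal reductase, at 51.6 ± 1.32 and 45.4 ± 2.11 FPKM (log2 difference -0.18, unadjusted p = 0.00932, adjusted p = 0.284), and RARG, a retinoic acid receptor, at 25.0 ± 1.17 and 22.1 ± 0.970 FPKM (log2 difference -0.17, unadjusted p = 0.0249, adjusted p = 0.338). Both had groups that did not overlap. The receptor RARA was at 40.0 ± 1.74 and 37.7 ± 2.67 FPKM, and RARB, itself a target of retinoic acid, at 7.80 ± 0.594 and 8.91 ± 1.55. CYP26A1 and CYP26B1, which degrade retinoic acid, were at 17.6 ± 1.92 and 13.7 ± 1.22 FPKM in control libraries and 15.7 ± 4.17 and 14.7 ± 3.72 in exosome libraries. CRABP2, which carries retinoic acid to the nucleus, was at 52.6 ± 2.37 and 46.0 ± 7.61 FPKM. In these 5 genes the groups overlapped. The median log2 difference of the 11 was -0.08, beside -0.00229 for all genes tested, and it ranged from -0.17 without exosome replicate 3 to -0.01 without replicate 2 of both groups.

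CYP24A1 (ENSSSCG00000007486; chromosome 17, 55110546 to 55130328) encodes the mitochondrial cytochrome P450 that inactivates vitamin D, and it is a classical target gene of the vitamin D receptor. Its level was 70.3, 81.4 and 73.2 FPKM in control replicates 1, 2 and 3, and 45.3, 34.6 and 47.1 FPKM in exosome replicates 1, 2 and 3. All exosome libraries were below all control libraries, and here exosome replicate 2 was the farthest from the controls, the reverse of its place for RBP4 and ALDH1A3. The means were 75.0 ± 5.72 and 42.3 ± 6.76 FPKM, a ratio of 0.565 and a log2 difference of -0.82 (SE 0.115).

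The vitamin D receptor VDR was near the lower end of the table, at 1.07 ± 0.0489 FPKM in control libraries and 1.11 ± 0.271 in exosome libraries (log2 difference 0.02, SE 0.119, limma adjusted p = 0.963). RXRB, the matched member of its retinoid X partners, was at 15.7 ± 0.452 and 13.8 ± 1.76 FPKM, and CYP2R1, which starts vitamin D activation, at 15.7 ± 0.657 and 15.2 ± 1.02. PDIA3, listed under its older name GRP-58, was at 710 ± 13.8 and 733 ± 23.7 FPKM. S100G, a calcium-binding protein induced by vitamin D in the gut and controlled by ovarian steroids in the uterus, was higher in every exosome library, at 3.78 ± 0.503 and 4.52 ± 0.123 FPKM (log2 difference 0.21, unadjusted p = 0.0533, adjusted p = 0.403). Of these 5 genes, 0 passed limma at an adjusted p of 0.05, where 0% of all genes did. At an unadjusted p under 0.05 there were 0, where 12.6% of all genes passed. The median log2 difference of the 5 was 0.02. It turned to -0.03 without exosome replicate 3, to -0.04 without replicate 3 of both groups and to -0.04 with a filter of at least 5 FPKM.

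CRYM (ENSSSCG00000007849; chromosome 3, 24815010 to 24835837) encodes mu-crystallin, a cytosolic protein that binds thyroid hormone with NADPH as cofactor. Its level was 43.4, 44.8 and 46.3 FPKM in control replicates 1, 2 and 3, and 32.0, 31.8 and 33.2 FPKM in exosome replicates 1, 2 and 3. The exosome libraries were lower and lay close together, so CRYM had the widest gap between groups relative to its spread of the 7 genes. The log2 difference was -0.46 (SE 0.0507), 11.3 times the SD within groups on the same scale, against 1.67 to 4.47 times for the other members. Each SD rests on 3 libraries per group, whose spread may be technical, so these ratios are a description and not a test.

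The thyroid hormone receptor THRA was at 5.31 ± 0.0604 FPKM in control libraries and 5.40 ± 0.172 in exosome libraries (limma adjusted p = 0.933). SLC3A2, a partner subunit of amino acid and thyroid hormone transporters, was at 106 ± 5.94 and 122 ± 11.097 FPKM (log2 difference 0.20, unadjusted p = 0.0291, adjusted p = 0.347). KLF9, a transcription factor gene induced by thyroid hormone, was at 3.70 ± 0.101 and 3.49 ± 0.0936 FPKM, with groups that did not overlap (adjusted p = 0.753). HR and SLCO1A2, a corepressor and an organic anion transporter, had overlapping groups. In limma 0 of these 5 passed an adjusted p of 0.05, where 0% of all genes did. SLC3A2 was the 1 gene of the 5 at an unadjusted p under 0.05, where 12.6% of all genes were. The median log2 difference of the 5 was 0.02, and 0.07 without exosome replicate 1.

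**Figure D2:**
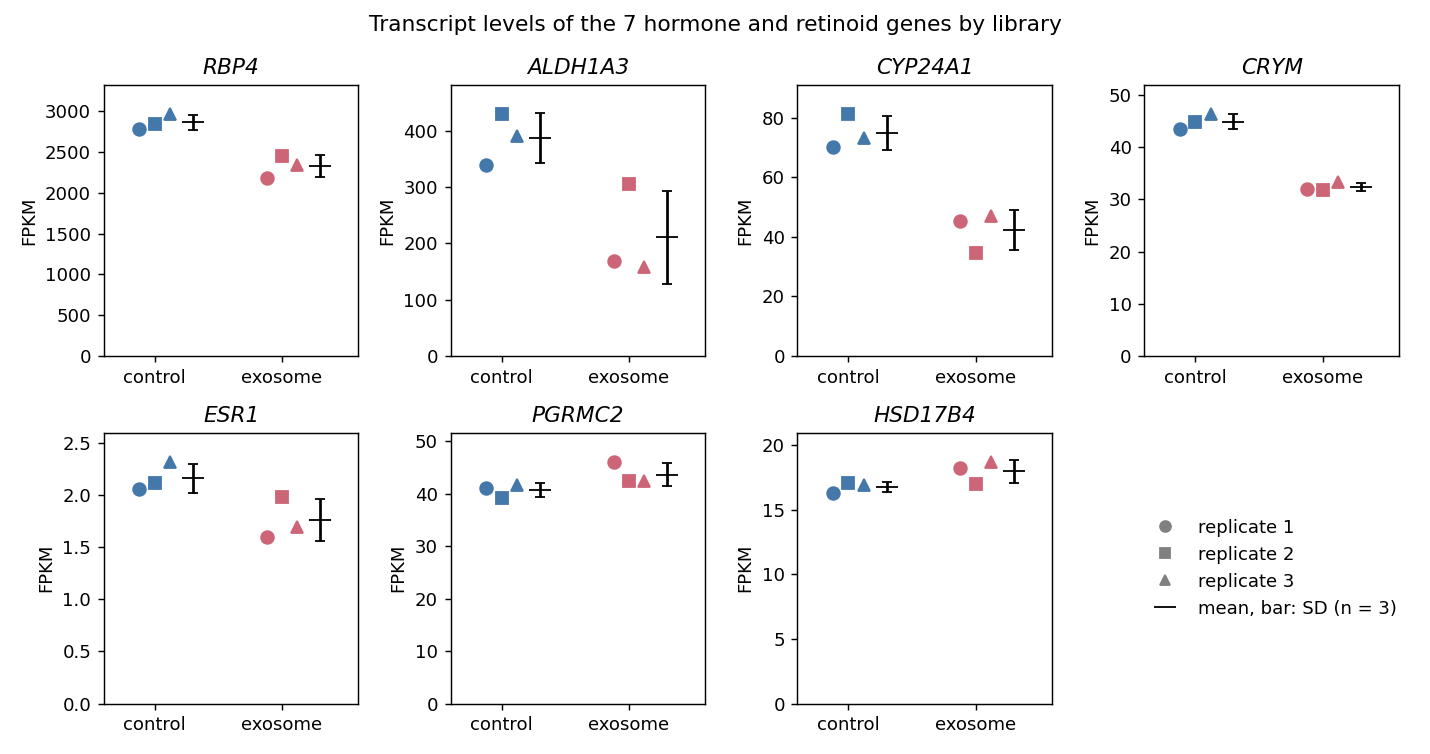
FPKM of each gene in the 3 control (blue) and 3 exosome (red) libraries, with the marker shape giving the replicate, the black dash the group mean and the bar its SD (n = 3). The groups are apart in 6 of the 7 genes, which were picked with this contrast known (18.7% of all genes tested had no overlap), and in HSD17B4 an exosome library (17.01 FPKM) lies below the highest control (17.05 FPKM).

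ESR1 (ENSSSCG00000025777; chromosome 1, 14217032 to 14604906) encodes oestrogen receptor alpha, the main nuclear oestrogen receptor of the endometrium. It was the least abundant member, at the 7.11th percentile of all genes by level. It measured 2.05, 2.11 and 2.32 FPKM in control replicates 1, 2 and 3, and 1.596, 1.98 and 1.69 FPKM in exosome replicates 1, 2 and 3. The exosome libraries were all lower, with exosome replicate 2 only just below the lowest control. The means were 2.16 ± 0.139 and 1.76 ± 0.200 FPKM, a ratio of 0.813 like that of RBP4. The log2 difference was -0.20 (SE 0.0959) with a pseudocount of 1 FPKM and -0.30 with one of 0.01, since the pseudocount shrinks differences at this level.

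GPER1, a membrane receptor that responds to oestrogen, was more abundant than ESR1, at 21.7 ± 0.103 FPKM in control libraries and 18.0 ± 3.78 in exosome libraries (log2 difference -0.28, limma adjusted p = 0.423). The ratio of ESR1 to GPER1 within a library was 0.0997 ± 0.00684 in control libraries and 0.0994 ± 0.0122 in the exosome group.

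HSD17B4 (ENSSSCG00000028431; chromosome 2, 123313445 to 123401386) encodes a peroxisomal enzyme that oxidizes oestradiol to oestrone and also carries out steps of fatty acid beta-oxidation. Its level was 16.3, 17.05 and 16.9 FPKM in control replicates 1, 2 and 3, and 18.3, 17.01 and 18.7 FPKM in exosome replicates 1, 2 and 3. Exosome replicate 2 lay among the controls and the other 2 exosome libraries above them. The means were 16.8 ± 0.395 and 18.0 ± 0.891 FPKM, a ratio of 1.07 and a log2 difference of 0.10 (SE 0.0598), which was 0.15 without replicate 2 of both groups and 0.15 with equal FPKM sums.

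Of the other 11 oestrogen and androgen genes matched and tested, 0 passed limma at an adjusted p of 0.05, and at an unadjusted p under 0.05 all 3 that passed were lower, where 7.5% of all genes were. HSD17B14, another dehydrogenase of the same enzyme activity, was at 40.0 ± 1.23 and 33.6 ± 1.61 FPKM (log2 difference -0.25, unadjusted p = 0.00248, adjusted p = 0.234). SULT2B1, which sulphates cholesterol and hydroxysteroids, was at 21.0 ± 0.255 and 16.0 ± 2.18 FPKM (log2 difference -0.38, unadjusted p = 0.00335, adjusted p = 0.234). In both genes the groups did not overlap. HSD17B7, which acts in cholesterol synthesis as well as on oestrone, was at 61.2 ± 5.16 and 40.7 ± 13.2 FPKM (log2 difference -0.62, unadjusted p = 0.0125, adjusted p = 0.303), with overlapping groups. HSD17B10 and HSD17B12, the most abundant enzymes of the family here, were at 67.5 ± 3.90 and 77.9 ± 1.99 FPKM in control libraries and 70.0 ± 1.17 and 76.3 ± 2.52 in exosome libraries. SRD5A1, a steroid reductase of the androgen path, was at 33.8 ± 1.34 and 33.04 ± 0.640 FPKM. The median log2 difference of the 11 was -0.10, with 2 positive and 9 negative, and it moved to -0.26 once exosome replicate 3 was left out, and to -0.06 when control replicate 1 was left out or FPKM sums were made equal.

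HSD17B4 was also set beside the other genes of peroxisomal beta-oxidation. In limma 0 of 15 rows of that list passed at an adjusted p of 0.05, where 0% of all genes did. At an unadjusted p under 0.05 there were 0, where 12.6% of all genes passed. ABCD3, a peroxisomal fatty acid importer, was at 31.3 ± 0.849 and 31.6 ± 1.74 FPKM, and CROT, which exports shortened chains as carnitine esters, at 84.6 ± 1.49 and 89.9 ± 4.26. Of the 15 rows 5 had positive and 10 negative log2 differences. The groups did not overlap in 3 of the 15 (20%), where 18.7% of all genes had no overlap. These were CROT, which was higher, and ACOX2 and AMACR, which were lower. The median log2 difference of the 15 was -0.04, which was -0.11 without exosome replicate 3, near 0 without exosome replicate 1 and positive (0.00883) with equal FPKM sums.

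PGRMC2 (ENSSSCG00000009072; chromosome 8, 96692823 to 96710218) encodes a haem-binding membrane protein of the family first described as progesterone-binding. Its level was 41.1, 39.1 and 41.7 FPKM in control replicates 1, 2 and 3, and 46.1, 42.3 and 42.4 FPKM in exosome replicates 1, 2 and 3. The exosome libraries were all higher, but 2 of them lay within 1 FPKM of control replicate 3. The means were 40.6 ± 1.37 and 43.6 ± 2.15 FPKM, a ratio of 1.07 and a log2 difference of 0.10 (SE 0.0561), which was 0.06 without exosome replicate 1 and was 0.15 with equal FPKM sums.

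PGRMC1, the paralogue, was more abundant, at 217 ± 4.23 and 212 ± 2.98 FPKM (log2 difference -0.04, limma adjusted p = 0.724). The ratio of PGRMC2 to PGRMC1 was 0.187, 0.178 and 0.196 in control replicates 1, 2 and 3, and 0.214, 0.201 and 0.202 in exosome replicates 1, 2 and 3, so it was higher in every exosome library. SERBP1, an RNA-binding partner of PGRMC1, was higher in every exosome library, at 378 ± 4.08 and 413 ± 16.0 FPKM (log2 difference 0.13, unadjusted p = 0.0221, adjusted p = 0.336). The membrane progestin receptors PAQR5, PAQR7 and PAQR8 were at 34.6 ± 0.908, 11.4 ± 1.25 and 10.2 ± 0.523 FPKM in control libraries and 31.7 ± 2.47, 11.96 ± 1.87 and 9.51 ± 0.787 in exosome libraries, each with overlapping groups. AKR1C1, from a family of closely related aldo-keto reductases that inactivate progesterone and whose reads may be shared, was at 257 ± 32.9 and 386 ± 141 FPKM (log2 difference 0.52, adjusted p = 0.458). Of the 11 progesterone genes besides PGRMC2, 0 passed limma at an adjusted p of 0.05, where 0% of all genes did. SERBP1 was the 1 of the 11 at an unadjusted p under 0.05, where 12.6% of all genes were. The median log2 difference of the 11 was -0.10, and -0.04 without replicate 1 of both groups.

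The 7 members ranged widely in abundance. In the control libraries the order was RBP4, ALDH1A3, CYP24A1, CRYM, PGRMC2, HSD17B4 and ESR1, and no neighbours in it overlapped, although the lowest CRYM value (43.4 FPKM) was close to the highest PGRMC2 value (41.7 FPKM). In the exosome libraries PGRMC2 (42.3 to 46.1 FPKM) and CYP24A1 (34.6 to 47.1 FPKM) overlapped and could not be ordered, and CRYM (31.8 to 33.2 FPKM) lay below both.

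**Figure D3:**
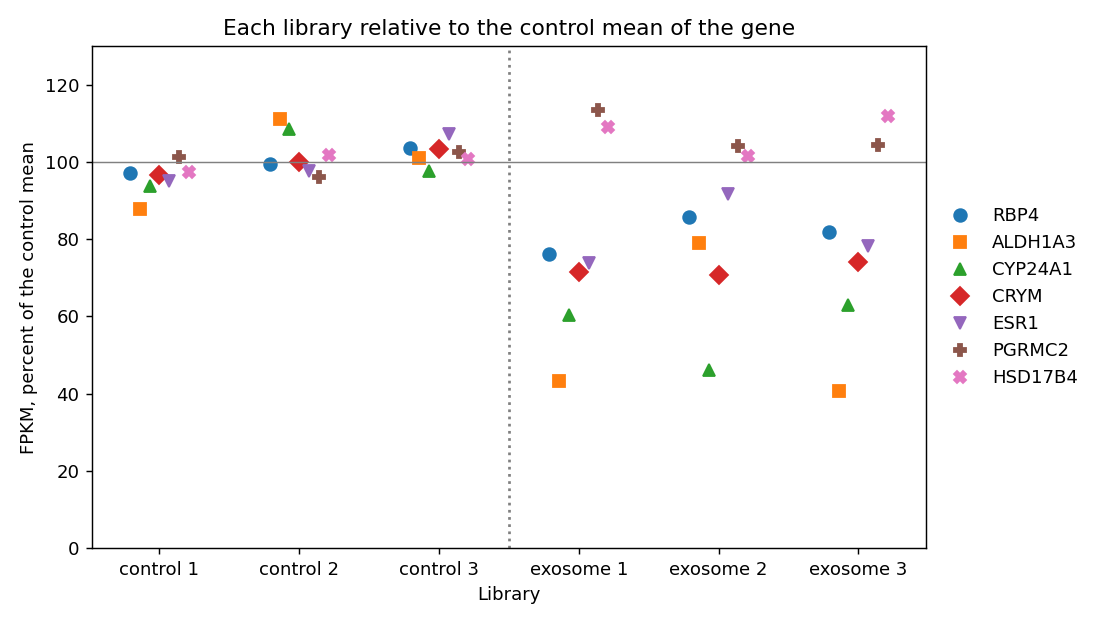
FPKM of each gene in each library as a percent of that gene's control mean (grey line at 100). In exosome replicate 2, ALDH1A3 (79.0%), ESR1 (91.6%), RBP4 (85.7%) and HSD17B4 (102%) are nearer to the controls than in exosome replicates 1 and 3, while CYP24A1 (46.2%) is farthest from them and CRYM (70.8%) barely differs.

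The members followed different courses across the exosome libraries. ALDH1A3 stood at 43.4%, 79.0% and 40.7% of its control mean in exosome replicates 1, 2 and 3, while CYP24A1 stood at 60.4%, 46.2% and 62.8%. CRYM was even, at 71.4%, 70.8% and 74.1%. RBP4 and ESR1 went with ALDH1A3 in having exosome replicate 2 nearest to the control. After the group means were removed, Pearson's r over the 6 libraries was 0.93 between RBP4 and ESR1, 0.82 between ALDH1A3 and ESR1, and -0.75 between CYP24A1 and ALDH1A3. It was highest, at 0.96, between CYP24A1 and HSD17B4, whose group differences have opposite signs. These coefficients rest on only 6 libraries from 1 table, and removing the group means leaves 4 degrees of freedom. They are the most extreme among all pairs of members and are given as a description.

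Among the 8547 other genes averaging 5 FPKM or more, the profiles most like each member over the 6 libraries had r of 0.988 to 0.999. They were TUSC3 and LITAF for RBP4 and ARF1 and CYTB, the mitochondrial cytochrome b, for ALDH1A3. For CYP24A1 they were TMEM199 and the unnamed ENSSSCG00000026893, and for CRYM the unnamed ENSSSCG00000015633 and WDR4. They were FBXL17 and CNN3 for ESR1, PANK2 and FNBP1 for PGRMC2, and LIG3 for HSD17B4. The number of genes with r over 0.95 was 198 for ALDH1A3, 122 for RBP4 and 119 for ESR1, against 56 for CRYM, 42 for CYP24A1, 31 for HSD17B4 and 29 for PGRMC2. With 6 libraries and this many genes such values are common, so likeness here says little about any single gene.

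Over the whole table, 0% of genes passed limma at an adjusted p of 0.05 with all 6 libraries, and 12.6% lay under an unadjusted p of 0.05. The groups did not overlap in 6 of the 7, where 18.7% of all genes had no overlap. Of the 6, 5 were lower, where 10.4% of all genes were, and PGRMC2 was higher, where 8.29% were. The members were picked with this contrast known, so nothing is read from that count.

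The remaining genes of the 10 hormone, retinoid, peroxisomal and cofactor lists lay near the background. Of 88 such rows, 0 passed at an adjusted p of 0.05 in limma. At an unadjusted p under 0.05 12 passed, or 13.6%, where 12.6% of all genes did. Of these 4 were higher, where 5.06% of all genes were, and 8 lower, where 7.5% were. The groups did not overlap in 16 of the 88 (18.2%), where 18.7% of all genes had none. The 7 genes had been taken out of these lists for their differences, and with them put back the count without overlap was 22 of 95. The 12 genes at an unadjusted p under 0.05 became 28 of 88 without exosome replicate 2, where 22.1% of all genes passed. They became 20 of 88 when replicate 2 was left out of both groups, where 15% of all genes passed. They became 7 of 88 without control replicate 2 or without exosome replicate 1. The share of all genes is not given for these settings, so nothing is read from these counts. Without exosome replicate 2, 5 of the 88 (5.68%) passed after adjustment over all genes tested, where 2.74% of all genes did. HSD17B7, STARD5 and ARID5B were lower (log2 differences -0.86, -0.40 and -0.44), where 1.88% of all genes passed as lower, and TXNRD1 and AKR1C1 higher (0.80 and 0.86), where 0.857% of all genes passed as higher, with limma adjusted p-values from 0.00856 to 0.0496. All 5 differences were smaller with exosome replicate 2 included. That follows from the choice of genes that passed only without it, so nothing is read from it. With any other single library left out, 0 of the 88 passed.

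**Figure D4:**
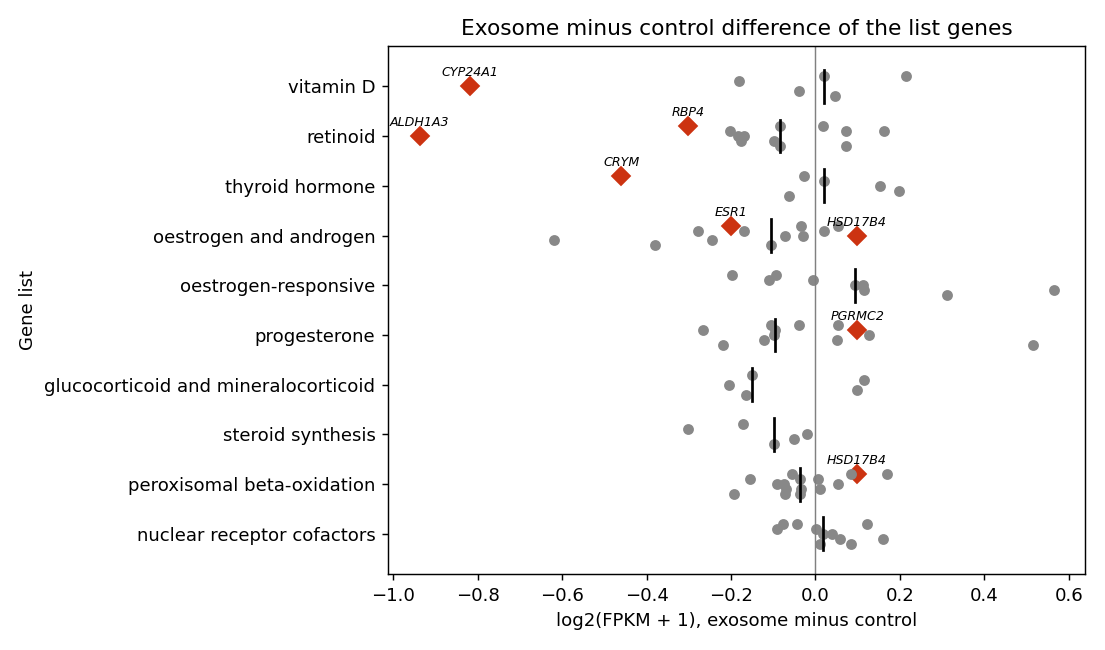
Exosome minus control difference of log2(FPKM + 1) for the matched genes of 10 lists, with red diamonds for the 7 genes, grey points for the others and a black bar for the median of the others in each list. CYP24A1 and ALDH1A3, which were picked with this contrast known, lie left of every grey point, and the list medians run from -0.15 to 0.09. In the fit without exosome replicate 2, not drawn here, HSD17B7 (-0.86) had a more negative difference than CYP24A1 (-0.68).

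**Figure D5:**
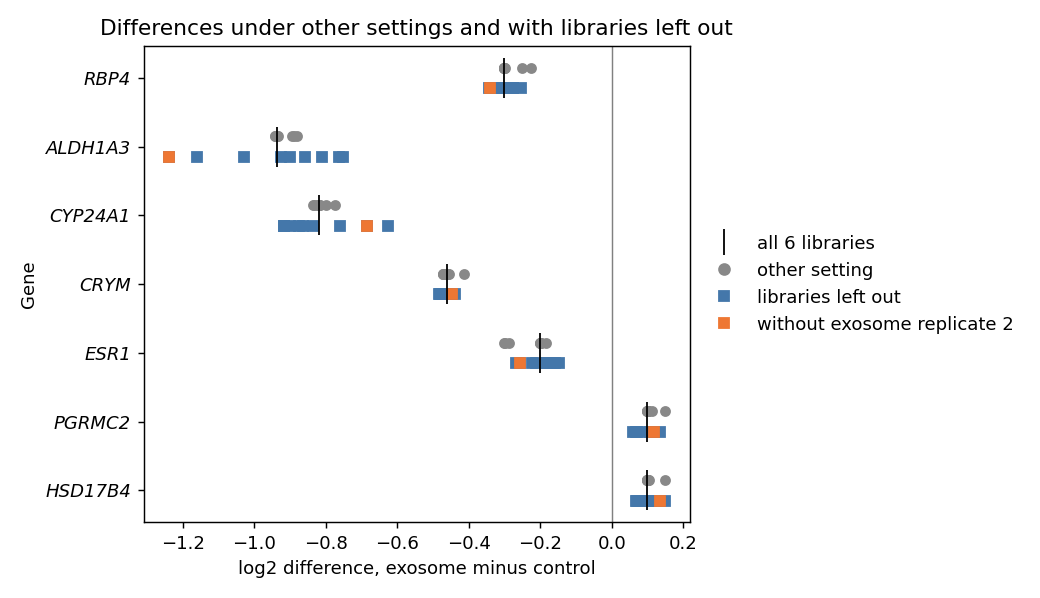
Log2 difference (exosome minus control) of each gene with all 6 libraries (black bar), under other settings (grey) and with libraries left out (blue, orange for exosome replicate 2). No setting moves a gene across 0, and ALDH1A3 has the widest range, from -1.24 to -0.75. For the 6 genes without overlap of the groups, only the scalings could have moved one across 0.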

How the data were processed

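RNA sequencing libraries from 3 control and 3 exosome-treated cultures were made with a stranded kit for mRNA (labels' protocols). Per the submitters' processing notes, the reads went through bcl2fastq 1.8.4, TopHat and Cufflinks on Sscrofa11.1. Which other versions, annotation, strand settings and filters applied is not given in the sources used here. As for units, the authors' deposited values were read as FPKM, judging from Cufflinks and from their range, since no header states the unit. The table held 10916 rows, 1 of them without values. The lowest value was 0.0882 and none was 0, so genes silent in a library cannot be seen. Steps of whole reads were not found among 69 low genes, so depth is unknown and count models were not used.

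Values were transformed as log2(FPKM + 1). The 10846 genes averaging 1 FPKM or more were fitted with limma 3.58.1 in R 4.3.3 (two-sided moderated test, intensity trend, 4 residual degrees of freedom) and adjusted over all of them by Benjamini and Hochberg. Differences and SEs on the log2 scale come from this fit and understate those of low genes. Columns were matched to samples by title. The 7 genes and the lists were chosen with earlier results of these data known. The text could name these 7 genes, any matched list gene, the 3 highest markers of a list, and the 2 most similar profiles per gene. The separate values of 2 such genes are left out of the text. Genes listed by identifier were named from the reference gene table. Of 182 other symbols on 10 lists 87 were matched. Another 3 list or marker entries were left out because table and reference gave different genes for the identifier. Gene positions are those of RefSeq's annotation of Sscrofa11.1. The fit was tested on simulated data. Python 3.11.15 with matplotlib 3.10.9 drew the figures.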

Additional observations from a re-analysis of the deposited data

How the results depend on the processing

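All 7 genes kept their direction under every alternative that gave a value: other pseudocounts, filters and scalings, no intensity trend, the replicate number as a block, libraries left out and, added after seeing the data, the log2 ratio of mean FPKM. For the 6 genes without overlap of the groups, only the scalings could have changed the direction, so the other settings are no check of it. ESR1 had no value with a filter of at least 5 FPKM. With all 6 libraries, differences that moved by more than the spread between replicates were CRYM with equal FPKM sums (-0.41), RBP4 with quantile normalization (-0.22), and ESR1 with pseudocounts of 0.1 and 0.01 (-0.29 and -0.30) and as a ratio of means (-0.30). With libraries left out, the log2 differences ranged from -0.92 to -0.62 for CYP24A1, -0.48 to -0.44 for CRYM, -0.34 to -0.25 for RBP4, -1.24 to -0.75 for ALDH1A3, -0.27 to -0.15 for ESR1, 0.06 to 0.14 for PGRMC2 and 0.07 to 0.15 for HSD17B4. CYP24A1 reached -0.62 without replicate 2 of both groups, which was also beyond its spread between replicates. The number of genes called over the whole table ranged from 0 to 297 with libraries left out, the highest when exosome replicate 2 was left out. Leaving replicate 2 out of both groups gave 58, and leaving out control replicate 3, or replicate 3 of both groups, gave 1. It was 0 in the other settings. In the main fit with all 6 libraries, 1362 genes were at an unadjusted p under 0.05. Other list genes called ranged from 0 to 5, and those at an unadjusted p under 0.05 from 7 to 28. The highest of each came without exosome replicate 2, where 2.74% and 22.1% of all genes passed. The cause of these shifts was not tested. The scalings moved the median of all genes by at most 0.0473. Same-numbered libraries deviated together weakly or not at all (r = 0.16, 0.14 and -0.07), and differently numbered ones had r from -0.27 to 0.17. The same-numbered values lie within that range, so they cannot decide if the numbers pair the samples. With the replicate number as a block, 0 genes passed, and 15 list genes against 12 were at an unadjusted p under 0.05. The share of all genes is not given for the block, so nothing is read from that count. The unknown depth leaves the counting error of low transcripts such as ESR1 and VDR unmeasured.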

Other observations

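The genes listed as oestrogen-responsive, a listing not tested in these cells, had a median log2 difference of 0.09, beside -0.00229 for all genes tested. This median ranged from 0.04 without exosome replicate 1 to 0.15 with equal FPKM sums. Of 9 matched, limma called 0 at an adjusted p of 0.05, and at an unadjusted p under 0.05 there were 2 higher and 1 lower, where 12.6% of all genes passed. STC2, a secreted glycoprotein, was at 13.0 ± 0.799 FPKM in control libraries and 16.5 ± 2.27 in exosome libraries, with no overlap (log2 difference 0.31, adjusted p = 0.306). TXNRD1, a thioredoxin reductase, was at 136 ± 14.9 and 205 ± 52.1 FPKM (log2 difference 0.56, adjusted p = 0.313), and MYB at 43.6 ± 3.46 and 37.9 ± 3.30 FPKM (log2 difference -0.20, adjusted p = 0.382). SPP1, the secreted adhesion protein osteopontin, was at 933 ± 32.5 and 996 ± 4.48 FPKM, with no overlap (log2 difference 0.09, adjusted p = 0.408). AREG and CCND1, a growth factor and a cyclin, had overlapping groups.

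Among glucocorticoid genes, SGK1, a kinase induced by corticosteroids, was at 206 ± 7.07 FPKM in control libraries and 183 ± 5.73 in exosome libraries, with no overlap (log2 difference -0.16, limma unadjusted p = 0.00902, adjusted p = 0.284). The glucocorticoid receptor NR3C1 was at 10.9 ± 0.208 and 9.91 ± 2.41 FPKM, and its targets FKBP5 and TSC22D3 had log2 differences of 0.12 and -0.20 with overlapping groups. Of 5 such genes tested, 0 passed limma at an adjusted p of 0.05, where 0% of all genes did. SGK1 was the 1 lower at an unadjusted p under 0.05, where 7.5% of all genes were. It was also the 1 of the 5 without overlap, where 18.7% of all genes had none. The median log2 difference of the 5 was -0.15, and -0.03 without exosome replicate 3. In steroid synthesis, STARD5, a sterol carrier, was at 16.3 ± 1.15 and 13.1 ± 1.68 FPKM, with no overlap (log2 difference -0.30, adjusted p = 0.307), and TSPO, a cholesterol-binding protein of the outer mitochondrial membrane, at 276 ± 11.8 and 269.6 ± 53.3 FPKM. CYB5A also had no overlap (log2 difference -0.10, limma adjusted p = 0.420). Of 5 synthesis genes tested, limma called 0 at an adjusted p of 0.05, where 0% of all genes passed. STARD5 was the 1 lower at an unadjusted p under 0.05, where 7.5% of all genes were. The groups did not overlap in 2 of the 5, where 18.7% of all genes had none. The median log2 difference of the 5 was -0.10, and -0.23 without replicate 3 of both groups. Of 11 nuclear receptor cofactors, 0 passed limma at an adjusted or an unadjusted p of 0.05, where 0% and 12.6% of all genes did. In all 11 the groups overlapped, while 18.7% of all genes had no overlap. Among the 11 were NCOA3 (8.89 ± 0.636 and 9.00 ± 0.551 FPKM) and NCOR1 (14.9 ± 0.368 and 15.6 ± 1.51 FPKM).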
